A study of Homo sapiens with 12 samples.

Results

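The genes described here are a module of 42 named genes of the endoplasmic reticulum (ER): its stress sensors, chaperones, isomerases and degradation factors, and the machinery by which proteins enter it, are glycosylated and leave it. They were taken from a list of gene symbols that was chosen with earlier results of these data known. Of the 42, 39 were measured among 11963 genes, and DNAJB11, PDIA5 and SEC61G had no value used here. Expression was measured on 12 Affymetrix 3' arrays of K562, an established human leukaemia line that the labels call an AML cell line. All cells were held without serum, were given recombinant Wnt3a at 100 ng/ml, and gave their RNA 8 h later. The CXXC5 overexpression group (3 arrays) received a plasmid for EGFP-tagged CXXC5 by nucleofection, a transient transfection, and its empty vector group (3 arrays) received the EGFP plasmid alone. The CXXC5 knockdown group (3 arrays) carried shRNA against CXXC5 after stable lentiviral infection, and its scrambled group (3 arrays) carried a scrambled shRNA delivered in the same way. CXXC5 is a CXXC zinc finger protein with a DNA-binding domain for unmethylated CpG, known as a brake on Wnt signalling. The labels name a pair of shRNA clones without tying them to samples, do not say whether replicates were separate cultures, and no probe set used here was paired with CXXC5, so the labels were not checked against its level.

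Proteins bound for the cell surface, the secretory route or the lumen enter the ER through the Sec61 channel, lose their signal peptide, receive N-linked sugars and fold with the help of chaperones and disulfide isomerases. When unfolded proteins accumulate, the sensors ATF6, IRE1 (encoded by ERN1) and PERK start the unfolded protein response, and ATF6 and spliced XBP1 raise transcription of chaperone and degradation genes through short promoter elements. HSPA5, the Hsp70 chaperone of the ER lumen also known as BiP, binds both unfolded proteins and the sensors.

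The module was abundant. Of the 39 members, 36 had a mean above that of the median gene and 18 lay above percentile 90 of genes. Replicate arrays of the same group correlated at 0.9963 to 0.9984 over all genes. The scrambled replicate 3 stood apart in RNA quality: its 3' minus 5' difference for GAPDH was 0.87 log2, against 0.227 to 0.335 in the other 11 arrays. Several of the counts and values are therefore also given without it. Of the K562 markers, 10 of 11 measured were above the median gene, SPI1 being the exception at percentile 35.2. They summed to 14.46 to 14.49 log2 in overexpression, 14.31 to 14.35 in empty vector, 14.42 to 14.44 in knockdown and 14.77 to 14.81 in scrambled arrays. Single markers differed in direction: in the same order, HBZ means were 11.88, 12.22, 12.6 and 13.05, and GATA1 means 10.33, 10.62, 10.5 and 10.03. Of the plasma cell markers, whose cells are rich in this machinery, 0 of 5 were above the median gene, with JCHAIN at percentile 3.0, and their summed log2 level was 7.62 to 7.78 in overexpression, 7.48 to 7.59 in empty vector, 7.68 to 7.80 in knockdown and 7.86 to 7.91 in scrambled arrays. Fibroblast markers (2 of 5 above the median gene, COL3A1 at percentile 8.9) summed to 10.59 to 10.66 in overexpression, 11.02 to 11.05 in empty vector, 11.22 to 11.25 in knockdown and 11.78 to 11.84 in scrambled arrays. This sum mostly followed FN1, at percentile 91.2. Its means were 10.27 in overexpression, 10.75 in empty vector, 11.0 in knockdown and 11.66 in scrambled arrays. Those of COL1A1 were 7.88, 7.98, 7.83 and 7.93 in the same order. T, NK and B cell markers (2 of 8 above the median gene) summed to 11.34 to 11.58 in overexpression, 11.10 to 11.11 in empty vector, 11.12 to 11.14 in knockdown and 11.29 to 11.60 in scrambled arrays. Epithelial and liver markers (4 of 5 above the median gene) summed to 13.21 to 13.24 in overexpression, 13.10 to 13.19 in empty vector, 13.02 to 13.10 in knockdown and 13.07 to 13.14 in scrambled arrays. The part of RNA quality and of these markers in the results was not tested. In bulk RNA, fewer cells expressing a gene and less RNA per cell cannot be told apart.

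The first question was how the module differed between knockdown and scrambled arrays. Knockdown arrays held more RNA of 4 of the 7 chaperones and cochaperones than scrambled arrays, and of several other members. HSPA5 was 1.80-fold, the chaperone cofactor SDF2L1 1.77-fold, the disulfide isomerase PDIA4 1.60-fold and HYOU1, an Hsp70-like partner of HSPA5, 1.47-fold higher. SEC24D, a cargo-binding subunit of the COPII coat that carries proteins out of the ER, was 1.78-fold higher. Of the 39 members, 13 rose and 0 fell (limma, adjusted p under 0.05 over all genes), where 8.79% of all 11963 genes were called higher and 5.22% lower. At an unadjusted p under 0.05, 20 members were higher and 0 lower (51.3% of members), where 28.1% of all genes differed in either direction. The groups did not overlap in 20 members, all with knockdown higher, against 18.2% of all genes higher and 14.2% lower without overlap. Among genes above the median gene, where most members lie, 14.3% were called higher and 7.42% lower. The median log2 change was 0.156 over the members, with 35 of 39 above 0, and -0.009 over all genes. Without scrambled replicate 3 the count was again 13 higher and the median 0.156, but XBP1 was no longer called and the channel subunit SEC61B was, with a log2 change of 0.21.

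HSPA5 stood at 12.82, 12.81 and 12.78 log2 in the knockdown arrays, against 11.98, 12.01 and 11.88 in the scrambled arrays. Every knockdown array lay above every scrambled array, and the spread within each group was small beside the gap. The log2 change was 0.85 (SE 0.056, 95% interval 0.72 to 0.97, adjusted p = 2.47e-06 by limma), and 0.81 without scrambled replicate 3. SDF2L1, which works with an Hsp40 partner of HSPA5, stood at 11.79, 11.85 and 11.75 log2 in knockdown arrays, against 11.00, 10.87 and 11.04 in scrambled arrays. Again no array of one group reached the other. Its log2 change was 0.83 (SE 0.060, 95% interval 0.69 to 0.96, adjusted p = 6.28e-06 by limma), and 0.86 without scrambled replicate 3.

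Many ER chaperone genes carry the ER stress response element in their promoters, so the RefSeq promoter windows (GRCh38.p14, 250 bases before to 50 after each gene's start) were searched on both strands for the element ERSE (CCAAT, any 9 bases, then CCACG), for its shorter form ERSE-II (ATTGG, any 1 base, then CCACG), and for the UPRE core TGACGTGG. Of the 39 measured members, 34 had a promoter in the table; PDIA3, DERL1, SPCS1, RPN1 and SEC24D were not matched. ERSE was found in 5 of the 34 (XBP1, HSPA5, HSP90B1, CALR and CANX) and in 0.0806% of all 27305 promoters. ERSE-II was found in 3 (HYOU1, SDF2L1 and HERPUD1) and in 0.0549% of all promoters, and the UPRE core in 2 (HYOU1 and SEC62) and in 0.795%. Of the 11 members with a promoter that rose with knockdown, 6 held one of the 3 elements, and of the 23 others with a promoter, 3 did (HSP90B1, CANX and SEC62). Of all 27305 promoters, which go beyond the 11963 genes measured, 0.927% held one. Since ERSE is known from ER chaperone genes, its larger share among the members was given in advance and is only a description. The 250 bases before the start are printed 5′ to 3′ on the gene's strand for the 6 that rose and for CANX, which held the element without passing the threshold. Capitals mark the fixed letters of ERSE, ERSE-II or the UPRE core on either strand, and a match describes the letters without showing that a factor binds there.
HSPA5: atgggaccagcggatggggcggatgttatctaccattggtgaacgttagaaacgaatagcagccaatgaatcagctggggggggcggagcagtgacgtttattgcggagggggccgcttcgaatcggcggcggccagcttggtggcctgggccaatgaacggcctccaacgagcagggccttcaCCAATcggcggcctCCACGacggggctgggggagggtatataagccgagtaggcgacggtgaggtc
XBP1: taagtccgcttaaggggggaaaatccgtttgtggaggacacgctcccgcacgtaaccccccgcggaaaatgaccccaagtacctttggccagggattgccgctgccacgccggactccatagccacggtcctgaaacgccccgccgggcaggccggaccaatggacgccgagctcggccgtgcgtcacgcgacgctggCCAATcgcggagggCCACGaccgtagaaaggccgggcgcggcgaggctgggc
CALR: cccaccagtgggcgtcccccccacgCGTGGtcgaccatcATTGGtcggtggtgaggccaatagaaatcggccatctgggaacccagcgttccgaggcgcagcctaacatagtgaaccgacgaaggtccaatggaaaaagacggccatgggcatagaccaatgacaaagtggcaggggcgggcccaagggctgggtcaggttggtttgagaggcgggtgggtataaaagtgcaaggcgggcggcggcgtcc
SDF2L1: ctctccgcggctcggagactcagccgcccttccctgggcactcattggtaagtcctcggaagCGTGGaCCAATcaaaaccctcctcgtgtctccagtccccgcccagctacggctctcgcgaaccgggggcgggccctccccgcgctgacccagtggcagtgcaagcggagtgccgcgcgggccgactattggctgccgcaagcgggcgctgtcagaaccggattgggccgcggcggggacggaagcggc
HERPUD1: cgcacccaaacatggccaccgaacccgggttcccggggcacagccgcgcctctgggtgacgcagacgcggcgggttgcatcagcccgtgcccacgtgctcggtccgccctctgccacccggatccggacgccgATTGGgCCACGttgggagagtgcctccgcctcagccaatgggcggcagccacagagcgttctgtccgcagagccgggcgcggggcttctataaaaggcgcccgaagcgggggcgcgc
HYOU1: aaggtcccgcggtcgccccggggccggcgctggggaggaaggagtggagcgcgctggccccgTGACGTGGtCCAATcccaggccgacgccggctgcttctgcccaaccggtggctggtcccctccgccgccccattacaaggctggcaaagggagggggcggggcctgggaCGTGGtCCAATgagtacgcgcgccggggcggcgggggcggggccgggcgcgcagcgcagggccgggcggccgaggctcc
CANX: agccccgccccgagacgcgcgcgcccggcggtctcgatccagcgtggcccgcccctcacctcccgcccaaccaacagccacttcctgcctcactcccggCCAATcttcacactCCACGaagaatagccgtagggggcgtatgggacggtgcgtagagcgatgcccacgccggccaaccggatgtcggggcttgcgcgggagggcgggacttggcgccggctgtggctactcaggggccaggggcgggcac
These windows lie at chr9:125241344-125241593 (HSPA5, minus strand), chr22:28800570-28800819 (XBP1, minus strand), chr19:12938359-12938608 (CALR, plus strand), chr22:21642052-21642301 (SDF2L1, plus strand), chr16:56931892-56932141 (HERPUD1, plus strand), chr11:119057206-119057455 (HYOU1, minus strand) and chr5:179698679-179698928 (CANX, plus strand). The ERSE of HSPA5 spans -66 to -48 from the start and that of XBP1 -52 to -34, both on the gene's strand, while that of CALR lies farther off, at -225 to -207, on the opposite strand. HYOU1 holds ERSE-II at -185 to -175 and at -79 to -69, and the first of these overlaps the UPRE core at -188 to -181. CANX holds its ERSE at -151 to -133, and its log2 change with knockdown was 0.05 (95% interval -0.08 to 0.17, adjusted p = 0.642 by limma).

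**Figure D1:**
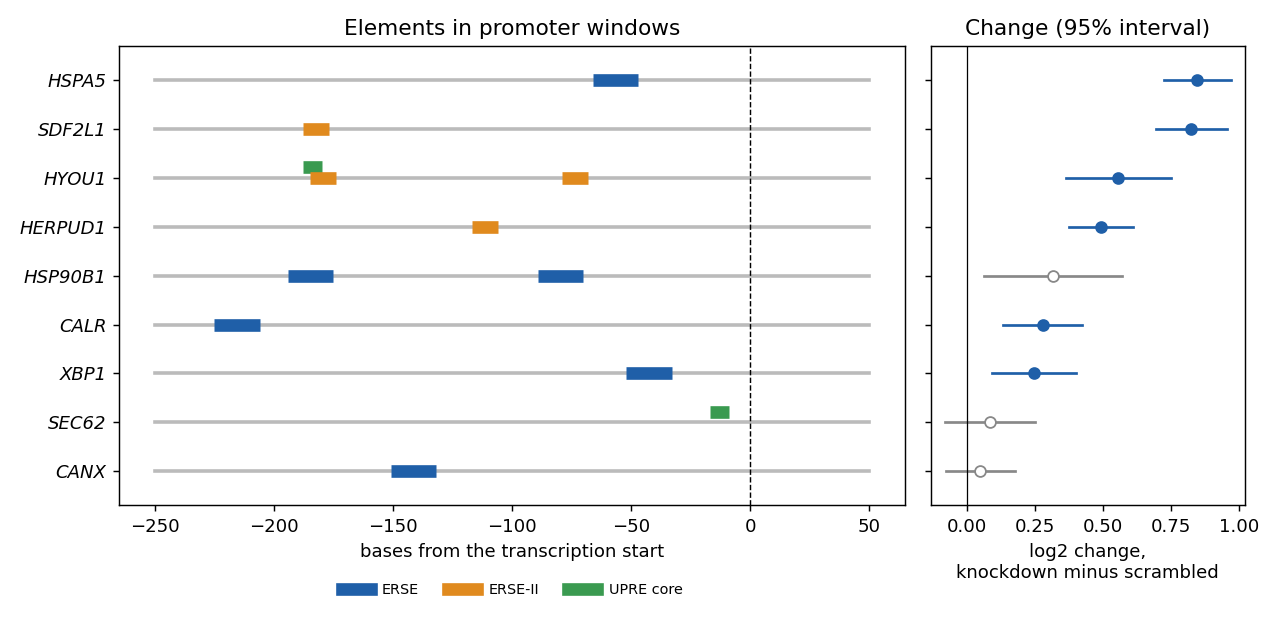
Positions of ERSE (blue), ERSE-II (orange) and UPRE core (green) matches in the promoter windows of the 9 members that hold one, in bases from the transcription start (left), and the log2 change of each gene, knockdown minus scrambled, with its 95% interval (right; filled points passed the adjusted p threshold of 0.05). The genes run from HSPA5, with the highest change (0.85), to CANX, with the lowest (0.05); HSP90B1, SEC62 and CANX did not pass.

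Among the sensors and factors of the stress response, XBP1, the transcription factor whose RNA is spliced by IRE1, rose with knockdown. It stood at 9.30, 9.45 and 9.55 log2 in knockdown arrays, against 9.16, 9.20 and 9.21 in scrambled arrays. The lowest knockdown array was only slightly above the highest scrambled array. This is a log2 change of 0.25 (SE 0.072, 95% interval 0.09 to 0.40, adjusted p = 0.0391 by limma), and the call ended without any 1 of knockdown replicates 2 and 3 or scrambled replicates 1, 2 and 3, and also with quantile normalization, median centring or a fit on the 6 arrays compared. The arrays do not separate spliced from unspliced XBP1. ERN1, which encodes IRE1, and ATF6, the sensor that is cut in the Golgi to free its own transcription factor, were not called; their log2 changes were 0.05 (95% interval -0.31 to 0.41) and 0.07 (95% interval -0.05 to 0.19).

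Of the 7 chaperones and cochaperones measured, 4 rose with knockdown, and the median log2 change of the 7 was 0.436. Besides HSPA5 and SDF2L1 these were HYOU1 and MANF. HYOU1 stood at 10.75, 10.60 and 10.57 log2 in knockdown arrays, against 10.20, 10.11 and 9.95 in scrambled arrays (log2 change 0.56, SE 0.089, adjusted p = 0.00155 by limma). The groups did not overlap. MANF, a small secreted protein of the ER lumen known to be induced by ER stress, stood at 10.36, 10.39 and 10.43 log2 in knockdown arrays, against 9.91, 9.89 and 10.08 in scrambled arrays (log2 change 0.44, SE 0.070, adjusted p = 0.00155 by limma). All knockdown arrays lay above all scrambled arrays here too. HSP90B1, the Hsp90 of the ER, was not called, with a log2 change of 0.32 (adjusted p = 0.0967); that change was 0.17 without scrambled replicate 3, the lowest of its group. DNAJB9, an Hsp40 cochaperone of HSPA5, had a log2 change of 0.20 (adjusted p = 0.0608), and DNAJC3, another cochaperone of that class, one of 0.16 (adjusted p = 0.308).

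The lectin chaperones hold glycoproteins by their sugars while they fold. CALR, the soluble one, stood at 11.52, 11.61 and 11.55 log2 in knockdown arrays, against 11.22, 11.22 and 11.40 in scrambled arrays. The groups did not overlap, though scrambled replicate 3 sat well above the other scrambled arrays. Its log2 change was 0.28 (SE 0.066, 95% interval 0.13 to 0.42, adjusted p = 0.0157 by limma), and the call ended without knockdown replicate 2, scrambled replicate 1 or scrambled replicate 2. CALR's other probe sets gave log2 changes of 0.24 (adjusted p = 0.116) and 0.38 (adjusted p = 0.0221). CANX, the membrane-bound one, was not called.

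Of the 5 isomerases, 2 rose with knockdown. PDIA4 stood at 10.26, 10.32 and 10.20 log2 in knockdown arrays, against 9.71, 9.68 and 9.35 in scrambled arrays. No knockdown array fell to the scrambled range, and scrambled replicate 3 was the lowest. For PDIA4 the log2 change was 0.68 (SE 0.12, 95% interval 0.41 to 0.95, adjusted p = 0.00327 by limma), 0.56 without scrambled replicate 3, and 0.45 on the second PDIA4 probe set. PDIA3, the isomerase that works with calnexin and calreticulin, stood at 11.64, 11.75 and 11.68 log2 in knockdown arrays, against 11.35, 11.32 and 11.23 in scrambled arrays, without overlap (log2 change 0.39, adjusted p = 0.00168 by limma). PDIA6 and P4HB, which are general disulfide isomerases, and PPIB, a prolyl isomerase, had log2 changes of 0.12, 0.14 and 0.07 and were not called.

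ER-associated degradation sends misfolded proteins back to the cytosol for the proteasome, and 2 of its 5 members rose with knockdown. HERPUD1, a membrane protein with a ubiquitin-like domain that helps assemble the degradation complex, stood at 10.48, 10.38 and 10.38 log2 in knockdown arrays, against 9.93, 9.88 and 9.97 in scrambled arrays. The arrays of each group sat close together and far from the other group. The log2 change was 0.49 (SE 0.054, 95% interval 0.37 to 0.61, adjusted p = 0.000137 by limma). SEL1L, the adaptor of the ubiquitin ligase of this complex, stood at 8.95, 8.99 and 9.05 log2 in knockdown arrays, against 8.66, 8.67 and 8.48 in scrambled arrays, without overlap (log2 change 0.39, SE 0.088, adjusted p = 0.0116 by limma). The retrotranslocation proteins DERL2 and DERL1 had log2 changes of 0.29 (adjusted p = 0.0653) and 0.15 (adjusted p = 0.197). A second, dimmer DERL1 probe set gave 0.54 (adjusted p = 0.0115 by limma). Relative to empty vector arrays, that probe set differed by -0.76 in scrambled (adjusted p = 0.000723) and by -0.22 in knockdown arrays (adjusted p = 0.305, both by limma). EDEM1, a lectin that hands over misfolded glycoproteins, stood at 9.21, 9.22 and 9.26 log2 in knockdown arrays, against 9.32, 9.36 and 9.18 in scrambled arrays. Its groups overlapped, with a log2 change of -0.05 (95% interval -0.19 to 0.08).

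Few genes of the entry machinery were called. Of the 7 translocon genes, SSR1 alone rose; it encodes a subunit of the TRAP complex beside the Sec61 channel. SSR1 stood at 12.21, 12.12 and 12.15 log2 in knockdown arrays, against 11.69, 11.70 and 11.87 in scrambled arrays. There was no overlap, and the log2 change was 0.41 (SE 0.063, adjusted p = 0.00131 by limma). All 4 SSR1 probe sets gave positive log2 changes, at 0.41, 0.68, 0.55 and 0.53. The other TRAP subunits SSR2, SSR3 and SSR4 had log2 changes of 0.13, 0.05 and -0.08, the channel subunit SEC61B 0.16, and SEC62 and SEC63, which help the channel take up finished chains, 0.08 and 0.23 (adjusted p = 0.0687 for SEC63). Of the 3 signal peptidase subunits 0 were called by limma, with log2 changes of 0.01 for SPCS1, 0.18 for SPCS2 and 0.04 for SPCS3; the raw p was under 0.05 for SPCS2 only, whose second probe set gave 0.26 (adjusted p = 0.0264).

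Oligosaccharyltransferase adds the N-linked sugar chain, and of its 4 subunits measured only the catalytic STT3A rose with knockdown. STT3A stood at 9.97, 10.09 and 10.06 log2 in knockdown arrays, against 9.77, 9.72 and 9.68 in scrambled arrays. No overlap was seen (log2 change 0.32, SE 0.069, adjusted p = 0.00923 by limma). The log2 changes of its partners RPN1, RPN2 and DDOST were 0.12, -0.04 and 0.05. At the exit from the ER, SEC24D stood at 8.15, 8.30 and 8.37 log2 in knockdown arrays, against 7.47, 7.40 and 7.46 in scrambled arrays. The gap was several times the spread within either group. SEC24D had a log2 change of 0.83 (SE 0.068, 95% interval 0.68 to 0.98, adjusted p = 1.56e-05 by limma), and 0.84 without scrambled replicate 3. SEC23B, the partner that binds SEC24 proteins in the inner COPII coat, had a log2 change of 0.09 on its brightest probe set and 0.34 (adjusted p = 0.0334) on a second one. LMAN1, a cargo receptor for glycoproteins, had a log2 change of -0.01 (95% interval -0.33 to 0.32).

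Leaving out scrambled replicate 3 changed the knockdown effect little among the other members that rose: the log2 changes were then 0.51 for HERPUD1, 0.50 for MANF, 0.49 for HYOU1, 0.47 for SSR1, 0.35 for PDIA3, 0.34 for CALR, 0.33 for SEL1L, 0.30 for STT3A and 0.26 for XBP1. Several members that were not called moved more. DERL2 was at 0.19, SEC63 at 0.13, SPCS2 at 0.11, DERL1 at 0.07, PDIA6 at 0.05 and SSR2 at 0.02 without that array, all lower than with it. SEC62, at 0.18, and SEC23B, at 0.17, were higher than with it, and LMAN1 was at -0.19.

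**Figure D2:**
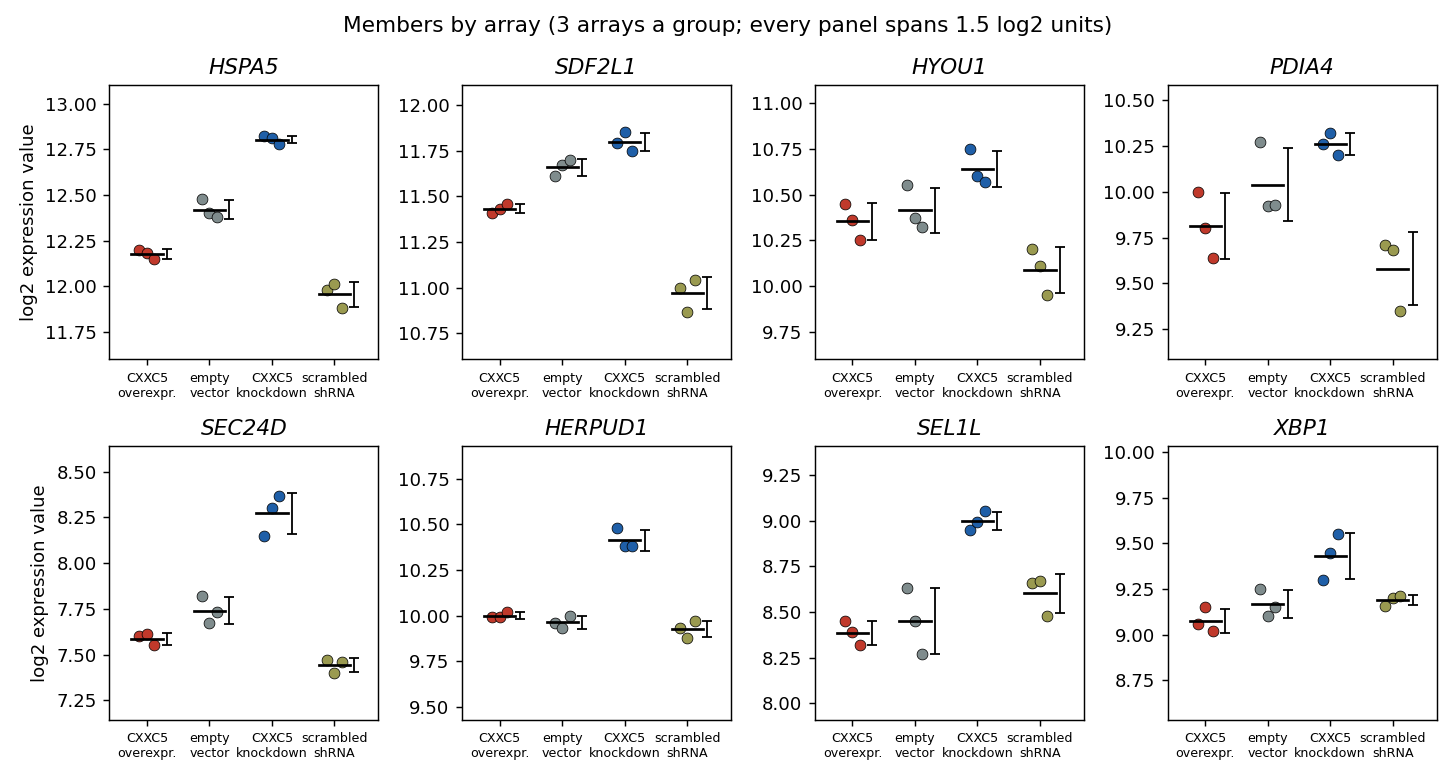
Log2 expression value of 8 members on each array, by group (points, 3 arrays a group; bar, mean; error bar, SD; every panel spans 1.5 log2 units). HSPA5, HERPUD1 and SEC24D are highest in the 3 knockdown arrays, and HSPA5, SDF2L1 and SEC24D are lowest in the 3 scrambled arrays.

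The knockdown values above are set against scrambled arrays, and these differed from the empty vector arrays. Both groups are controls, but the scrambled cells had been infected with lentivirus and the empty vector cells nucleofected, so shRNA vector and delivery cannot be told apart in this comparison. Relative to empty vector, 12 of the 39 members fell and 1 rose in scrambled arrays, where 15.3% of all genes were called lower and 16.2% higher, and 21.7% and 16.8% among genes above the median gene. The groups did not overlap in 14 members that were lower and 2 that were higher in scrambled arrays, against 21.9% and 23.8% of all genes. Without empty vector replicate 1, 5 of the 39 members were called lower, beside 1505 of all 11963 genes. Without scrambled replicate 3, 8 members were, beside 1633 of all genes, and SEC61B and SEC62 were then among the 8. In either direction, 33.3% of members and 31.5% of all genes were called, and 38.5% and 42.7% had an unadjusted p under 0.05 (limma). The members thus differed from all genes mainly in direction. The median log2 difference was -0.078 over the members and 0.017 over all genes.

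Of the 7 chaperones and cochaperones, 5 were lower in scrambled than in empty vector arrays. SDF2L1 differed by -0.69 log2 (adjusted p = 1.34e-05), HSPA5 by -0.47 (adjusted p = 0.000115), HSP90B1 by -0.43 (adjusted p = 0.0156), DNAJC3 by -0.33 (adjusted p = 0.0242) and HYOU1 by -0.33 (adjusted p = 0.0153; all by limma). Without scrambled replicate 3 these differences were -0.72 for SDF2L1, -0.43 for HSPA5 and -0.28 for HSP90B1. The isomerases PDIA4 and PDIA3 differed by -0.47 and -0.19, ATF6 and SEC24D by -0.30 each, DERL2 by -0.27 (-0.17 without scrambled replicate 3), SSR1 by -0.26 and STT3A by -0.23. The calls of PDIA4 and HYOU1 ended without empty vector replicate 1 or scrambled replicate 3, that of HSP90B1 without empty vector replicate 1, and those of DNAJC3, PDIA3, DERL2 and STT3A without any 1 of empty vector replicates 1 and 2 or scrambled replicates 2 and 3. EDEM1 was the member that rose: it stood at 9.32, 9.36 and 9.18 log2 in scrambled arrays, against 8.98, 8.88 and 8.95 in empty vector arrays (log2 difference 0.35, adjusted p = 0.00132 by limma). HERPUD1, MANF, CALR and XBP1 lay close to each other in both control groups, with log2 differences of -0.04, -0.08, 0.01 and 0.02, none of them called. For CALR this holds on its brightest probe set; the one whose name ends in neither _x_at nor _s_at differed by -0.35 (adjusted p = 0.0157 by limma).

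Set against the empty vector arrays, the knockdown arrays held 7 members that rose and 1 that fell, where 3.02% of all genes were called higher and 1.52% lower, and 3.63% and 1.25% among genes above the median gene. The groups did not overlap in 17 members that were higher and 2 that were lower in knockdown arrays, against 17.5% and 12.5% of all genes. This comparison shares its arrays with those above, and knockdown and delivery cannot be told apart in it. The median log2 difference was 0.104 over the members and 0.013 over all genes. Without any 1 of knockdown replicates 2 and 3 or empty vector replicates 2 and 3, 4 members were called higher.

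HERPUD1, at 10.48, 10.38 and 10.38 log2 in knockdown arrays, stood against 9.96, 9.93 and 10.00 in empty vector arrays, a log2 difference of 0.46 (SE 0.054, adjusted p = 0.0015 by limma). Its knockdown values were thus about as far above one control group as above the other. SEC24D, at 8.15, 8.30 and 8.37 log2 in knockdown arrays against 7.82, 7.67 and 7.73 in empty vector arrays, was higher by 0.53 (adjusted p = 0.00186). Averaged over all its probe sets, of which the others are dim, SEC24D differed by 0.21 and was not called. HSPA5, at 12.82, 12.81 and 12.78 log2 in knockdown arrays against 12.48, 12.40 and 12.38 in empty vector arrays, was higher by 0.38 (SE 0.056, adjusted p = 0.00464 by limma), 1.30-fold. Knockdown, empty vector and scrambled arrays of HSPA5 thus formed 3 levels with no overlap between them.

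MANF was higher in knockdown than in empty vector arrays by 0.36 log2 (adjusted p = 0.018), EDEM1 by 0.29 (adjusted p = 0.0227) and CALR by 0.28 (adjusted p = 0.035; all by limma). The calls of MANF and EDEM1 ended without any 1 of knockdown replicates 2 and 3 or empty vector replicates 2 and 3, and that of CALR without any 1 of the 6 arrays. CALR differed by 0.32 (adjusted p = 0.0762) and 0.03 (adjusted p = 0.879) on its other probe sets. ATF6 was lower in knockdown arrays, at 8.59, 8.66 and 8.68 log2, against 8.91, 8.88 and 8.82 in empty vector arrays (log2 difference -0.23, adjusted p = 0.043 by limma). This call, too, ended without any 1 of the 6 arrays. SEL1L was higher by 0.55 (adjusted p = 0.00667) on its brightest probe set, but by -0.24, -0.07 and 0.03 on its 3 dimmer probe sets, so the direction of SEL1L against empty vector depends on the probe set. Of the genes that rose against scrambled, 7 were not called against empty vector: SDF2L1 (0.14, adjusted p = 0.204), HYOU1 (0.23, adjusted p = 0.154), PDIA4 (0.21), PDIA3 (95% interval 0.06 to 0.33), SSR1 (0.15), STT3A (0.09) and XBP1 (0.27, adjusted p = 0.055).

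Over all 4 groups, the knockdown mean was the highest in 27 of the 39 members, a pattern that 21.7% of all genes showed. All 3 knockdown arrays lay above all 9 other arrays in 12 members (3.13% of all genes): XBP1, HSPA5, HYOU1, SDF2L1, MANF, CALR, PDIA3, HERPUD1, SEL1L, SEC63, SSR1 and SEC24D. All 3 scrambled arrays lay below all others in 6 members (7.37% of all genes): HSPA5, HSP90B1, HYOU1, SDF2L1, DERL2 and SEC24D. Both lists hold on the brightest probe set of each gene. On other probe sets of CALR, SEL1L, SEC63, SSR1 and SEC24D, knockdown arrays overlapped those of other groups. Scrambled arrays overlapped other groups on dimmer probe sets of HSP90B1 and SEC24D. The knockdown mean was highest and the scrambled mean lowest in 16 members (6.87% of all genes). Without scrambled replicate 3, a check added after seeing the data, these counts were 27 (23.5% of all genes), 13 (4.03%), 10 (10.4%) and 14 (6.81%).

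**Figure D3:**
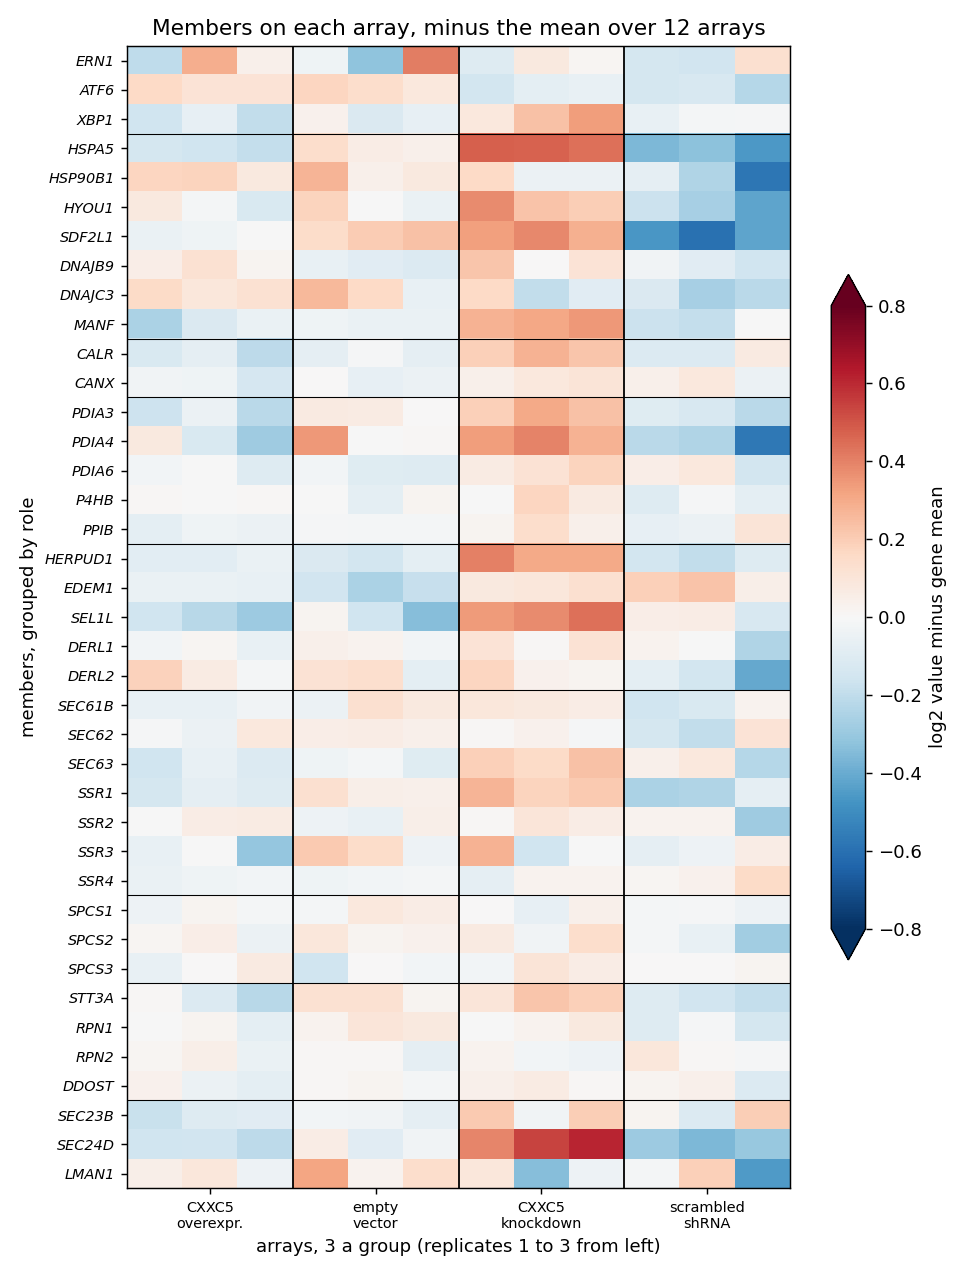
Log2 value of each of the 39 members on each of the 12 arrays minus the gene's mean over all arrays (red above the mean, blue below; rows grouped by role, columns by group with replicates 1 to 3 from the left). The knockdown columns are red for HSPA5, SDF2L1, HERPUD1 and SEC24D and the scrambled columns blue for HSPA5, SDF2L1 and HYOU1, while the rows SPCS1 and SPCS3 of the signal peptidase are mostly pale.

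The second question was how the module differed between overexpression and empty vector arrays. Few members were called with overexpression: 2 of the 39 members fell and 0 rose relative to empty vector (limma). Of all genes 3.37% were called lower and 3.61% higher, and 5.15% and 5.02% among genes above the median gene. The members' share of lower calls, 5.13%, thus lay near the background. At an unadjusted p under 0.05, 8 members (20.5%) differed in either direction, as did 20.4% of all genes. The median log2 change was -0.041 over the members and 0.001 over all genes. HSPA5 stood at 12.20, 12.18 and 12.15 log2 in overexpression arrays, against 12.48, 12.40 and 12.38 in empty vector arrays. Every overexpression array lay below every empty vector array. The log2 change was -0.25 (SE 0.056, 95% interval -0.37 to -0.13, adjusted p = 0.0212 by limma), and the call ended without any 1 of overexpression replicates 2 and 3 or empty vector replicates 1 and 2.

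SDF2L1 stood at 11.41, 11.43 and 11.46 log2 in overexpression arrays, against 11.61, 11.67 and 11.70 in empty vector arrays. These groups did not overlap either. The log2 change was -0.23 (SE 0.060, 95% interval -0.36 to -0.10, adjusted p = 0.0396 by limma), and the call ended when any 1 of the 6 arrays was left out. The groups also did not overlap, with overexpression lower, in PDIA3, PPIB, SSR1, STT3A, RPN1, SEC23B and SEC24D, which makes 9 members with HSPA5 and SDF2L1 (15.3% of all genes). Their log2 changes ran from -0.04 (PPIB) to -0.19 (PDIA3, adjusted p = 0.0963; STT3A, adjusted p = 0.13) among those not called. DNAJB9 and EDEM1 were higher without overlap (12.6% of all genes), by 0.15 and 0.14, and were not called. HERPUD1 stood at 9.99, 9.99 and 10.02 log2 in overexpression arrays, against 9.96, 9.93 and 10.00 in empty vector arrays, and these groups overlapped (log2 change 0.04, 95% interval -0.08 to 0.16).

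The effects of knockdown and of overexpression, each against its own control, share no arrays, and their difference was tested for every gene. The knockdown effect was the higher in 13 of the 39 members and the lower in 0, where 12.3% and 8.15% of all genes were called, and 19.6% and 10.5% of genes above the median gene. At an unadjusted p under 0.05, 17 members (43.6%) differed in either direction, as did 33.1% of all genes. The difference was 1.09 log2 for HSPA5 (SE 0.079, adjusted p = 3.54e-06), 1.06 for SDF2L1 (SE 0.085, adjusted p = 7.36e-06), 0.98 for SEC24D (adjusted p = 2.98e-05) and 0.91 for PDIA4 (adjusted p = 0.00293; all by limma). For HERPUD1 it was 0.46 (adjusted p = 0.00137), from a knockdown effect of 0.49 and an overexpression effect of 0.04. HYOU1, MANF, PDIA3, SSR1, STT3A, SEL1L, CALR and XBP1 made up the rest of the 13, at 0.34 (XBP1) to 0.61 (HYOU1). The members called in this test were the same 13 genes that rose with knockdown. As the knockdown effect is itself part of the tested difference, this match is not separate support. The call of SEL1L ended without overexpression replicate 3 or knockdown replicate 3, and that of XBP1 without any 1 of 8 of the 12 arrays. Without scrambled replicate 3, 14 members were called higher and 1 lower.

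**Figure D4:**
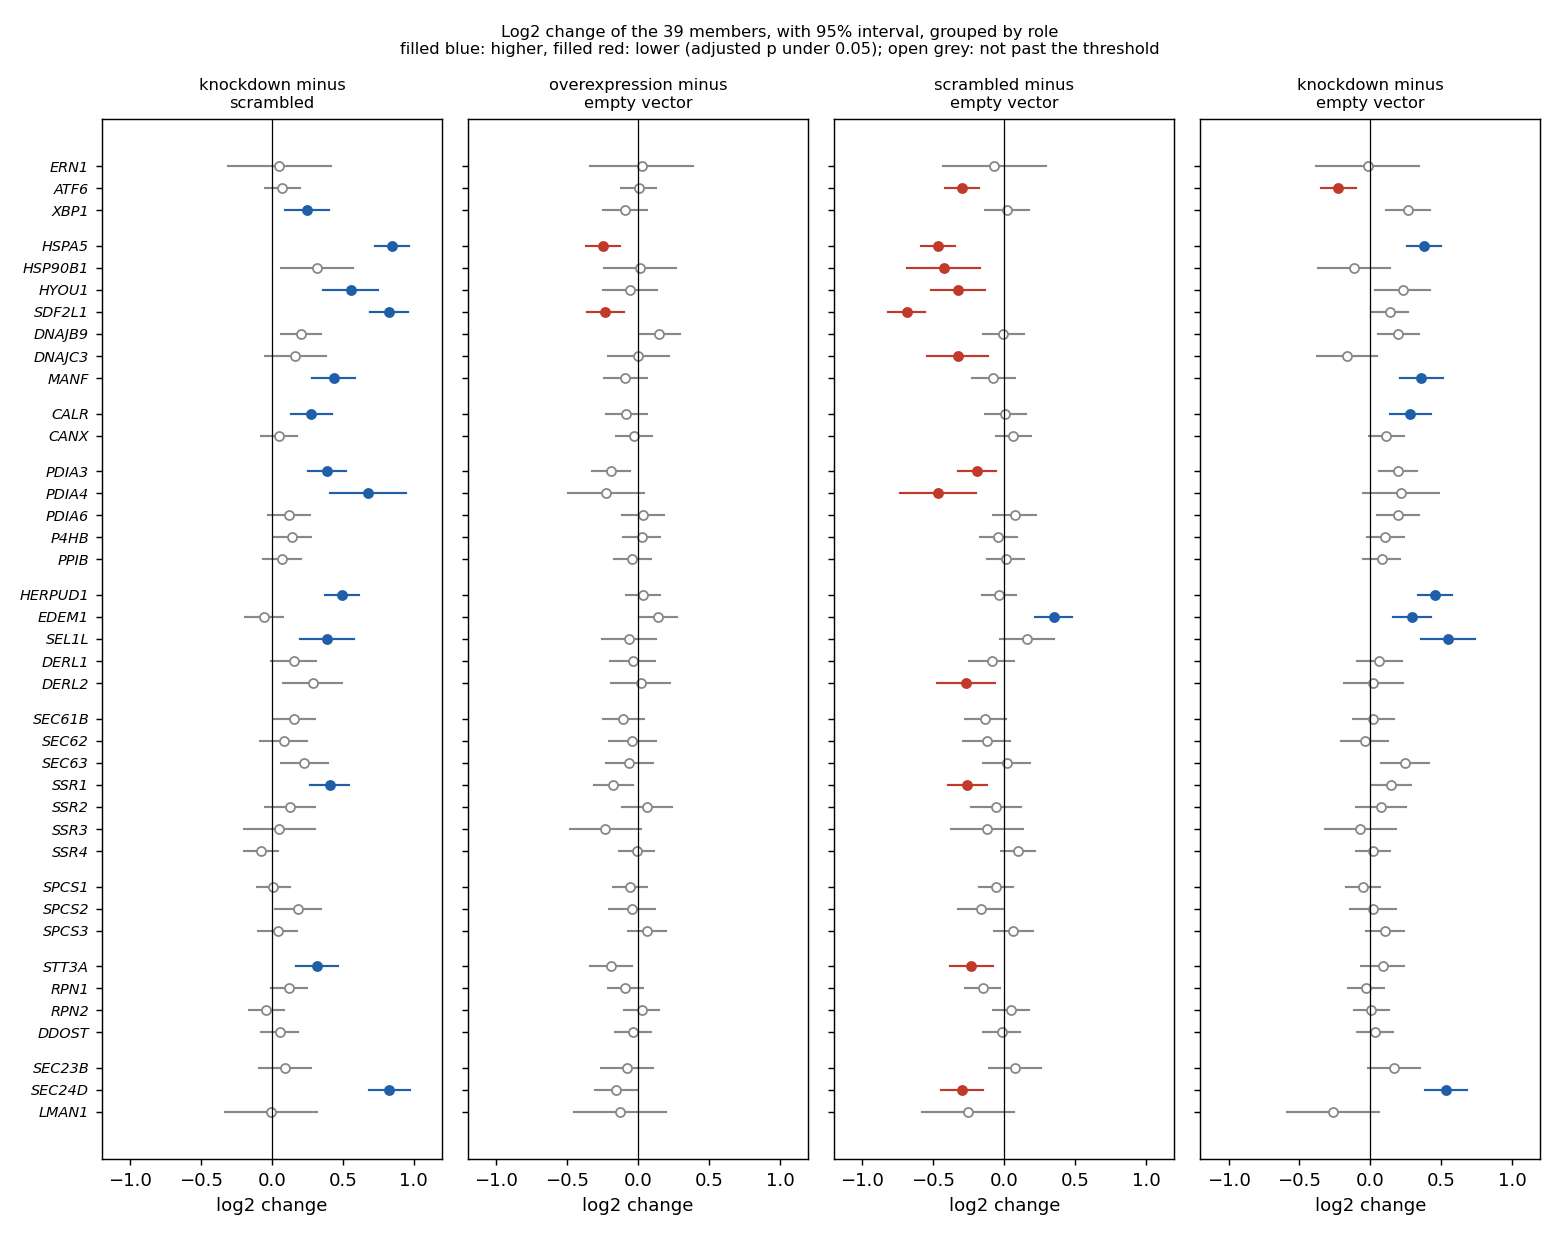
Log2 change of each of the 39 members with its 95% interval in 4 comparisons (columns), grouped by role; filled blue points rose and filled red points fell at an adjusted p under 0.05, open grey points did not pass. In the knockdown column 13 points are blue, in the overexpression column HSPA5 and SDF2L1 are red, and in the scrambled minus empty vector column 12 points are red and EDEM1 is blue.

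A wider list of 169 other genes of ER folding, degradation, translocation, glycosylation and exit, of which 136 were measured, was set beside the module. With knockdown against scrambled, 24 of the 136 rose and 3 fell (25 and 4 without scrambled replicate 3), with a median log2 change of 0.085. These are 17.6% and 2.21% of the list, where 8.79% and 5.22% of all genes were called, and 14.3% and 7.42% of genes above the median gene. The genes that rose included TXNDC15, a thioredoxin-domain protein of the ER (0.54), DNAJC10, an ER reductase that helps degradation (0.46), EDEM2, which trims mannose from misfolded glycoproteins (0.45), SAR1B, the GTPase that starts COPII assembly (0.41), UBE2J1, a ubiquitin-conjugating enzyme of the ER membrane (0.40), and SRPRB, a subunit of the signal recognition particle receptor (0.39). Those that fell were PPP1R15A, which restores translation after stress by directing dephosphorylation of the initiation factor eIF2 (-0.44, adjusted p = 0.00373 by limma), and CAMLG and BAG6, which act in insertion of tail-anchored proteins (-0.39 and -0.23).

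By role in the wider list, 6 of 26 chaperones and cochaperones, 6 of 36 exit and retrieval genes, 4 of 24 recognition and translocation genes, 4 of 20 N-glycosylation genes, 3 of 21 glycoprotein folding and degradation genes and 1 of 9 stress sensors and factors rose with knockdown. Beside these counts, 8.79% of all genes and 14.3% of genes above the median gene were called higher, and several roles lay near the latter share. With overexpression, 2 of the 136 rose, PPP1R15A (0.33, adjusted p = 0.0324) and CAMLG (0.25), and 3 fell, DNAJC10 (-0.31, adjusted p = 0.0156), SRPRB (-0.25) and SAR1B (-0.25; all by limma). These shares, 1.47% higher and 2.21% lower, lay below the 3.61% and 3.37% of all genes called. All 5 were also called with knockdown in the opposite direction, and the difference of the effects was 0.76 log2 for DNAJC10, 0.65 for SAR1B, 0.64 for SRPRB, -0.64 for CAMLG and -0.77 for PPP1R15A. How many of all genes called with overexpression were called with knockdown in the opposite direction was not counted. These 5 thus have no background beside them. With any 1 array left out, 0 to 1 of the 136 were higher and 0 to 4 lower with overexpression.

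Between scrambled and empty vector arrays, 33 of the 136 were lower and 13 higher in scrambled (29 and 12 without scrambled replicate 3), with a median log2 difference of -0.052. These are 24.3% and 9.56% of the list, where 15.3% and 16.2% of all genes were called lower and higher, and 21.7% and 16.8% of genes above the median gene. Among those whose groups did not overlap, the lowest differences were those of TXNDC15 (-0.60), MBTPS2, the protease that frees ATF6 in the Golgi membrane (-0.47), DNAJC10 (-0.47), EMC8, a subunit of the membrane insertion complex (-0.42), the ER-bound transcription factor CREB3 (-0.38) and DOLK, the dolichol kinase (-0.37). DDIT3, the transcription factor CHOP, which acts downstream of PERK, had the highest difference, 1.10 log2 (SE 0.10, adjusted p = 1.92e-05 by limma), followed by PPP1R15A (0.60), CAMLG (0.59), NUCB2 (0.42), ERP29 (0.37) and NUCB1 (0.34). ERP29 is a lumenal chaperone, and NUCB1 and NUCB2 are calcium-binding proteins. Against empty vector, knockdown arrays held 5 that rose and 0 that fell of the 136: DDIT3 (0.78, adjusted p = 0.0021), KDELR3, which returns escaped ER proteins (0.35), GFPT1, the first enzyme of hexosamine synthesis (0.33), NUCB2 (0.32) and EIF2AK3, which encodes PERK (0.32, adjusted p = 0.035; all by limma). The share that rose, 3.68%, lay near the 3.02% of all genes called higher. At an unadjusted p under 0.05, 28 of the 136 (20.6%) differed in either direction, as did 22.9% of all genes; without knockdown replicate 3, empty vector replicate 2 or empty vector replicate 3, 2 were called higher, and without knockdown replicate 1, 3.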

How the data were processed

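One Affymetrix array per sample was read for 12 samples in 4 groups of 3, grouped by the labels. The deposited values were made by the authors with Affymetrix Expression Console, per the submitters' processing notes; its version and summarisation are not given in the sources. The log2 scale of the deposited values was inferred from their range, 2.07 to 14.45, with array medians of 6.65 to 6.71. The number of arrays limits the precision. Per the labels, 500 ng of total RNA was labelled per array.

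Of 22277 probe sets, 62 controls were left out. The platform annotation paired 19064 with 1 symbol, 1043 with several and 2108 with none; only the first were named, and 0 symbols changed on update through RefSeq gene identifiers (GRCh38.p14). The brightest probe set over 12 arrays stood for each gene, which gave 11963 genes; its name ends in _x_at for 5 members and _s_at for 17, types that can pick up related transcripts.

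Genes were fitted with limma 3.58.1 (R 4.3.3; lmFit with 1 coefficient per group over 12 arrays, contrasts, eBayes), two-sided, with Benjamini-Hochberg adjustment over all genes and a threshold of 0.05. SE and intervals (95%) come from this fit. Since the labels do not say that replicates were separate cultures, p-values cover only the sample-to-sample spread seen here, which could be technical. The limma step was tested on simulated data with 50 changed genes of each size. It recovered 30% of changes of 0.3 log2 and 86% of changes of 0.6 for overexpression minus empty vector. For knockdown minus scrambled it recovered 18% and 86%, so a small change that was not called can still be present. The changed genes were drawn from genes of all levels, and 11763 genes were left unchanged. Both settings differ from the data and the members, so the rates do not carry over to them directly. The members and the wider list were chosen with earlier results of these data known, so lists are described by counts and medians and not tested. All members are named; of the wider list, up to 6 of the highest and 6 of the lowest called changes without overlap in each comparison. Values on each array are given for the 4 highest (HSPA5, SEC24D, SDF2L1 and PDIA4) and the 2 lowest (CALR and XBP1) called member changes with knockdown, for the members called with overexpression, and for further members chosen after their values were seen. Alternatives were other normalizations, probe set choices, filters, priors, thresholds, array weights, 6-array fits, a replicate block and leaving out each array.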

Additional observations from a re-analysis of the deposited data

How the results depend on the processing

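The 13 members higher with knockdown than with scrambled shRNA stayed within 12 to 13 when 1 array was left out, and 10 of them (HSPA5, HYOU1, SDF2L1, MANF, PDIA3, PDIA4, HERPUD1, SSR1, STT3A and SEC24D) were called under every alternative run that held them. The count was 7 without _x_at and _s_at probe sets, where 24 members were left, and 20 with a trended robust prior; the wider list went to 37 higher after dropping the dimmest 40% of genes, and from 3 lower to 6 with quantile normalization and 7 with that filter, and held 17 to 25 higher with 1 array left out, an alternative added for this list after seeing the data. The members' median was 0.201 with the mean of all probe sets and 0.149 to 0.204 with 1 array left out. The 2 members lower with overexpression became 1 with quantile normalization, 1 without _x_at and _s_at probe sets, 4 with the trended prior, 0 at a threshold of 0.01, 0 with 6 arrays and 0 to 1 with 1 array left out, with medians of -0.064 to -0.031 when 1 array was left out; neither call held under every alternative. In the wider list, overexpression gave 5 higher with quantile normalization, 5 higher and 11 lower with the filter, and 0 to 1 higher and 0 to 4 lower with 1 array left out.

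Between the controls, the 12 lower members became 6 without _x_at and _s_at probe sets, 5 at 0.01 and 5 to 12 with 1 array left out, the higher count 1 to 2, and the median -0.053 with median centring, -0.123 with the mean of all probe sets and -0.092 to -0.067 with 1 array left out; HSPA5, SDF2L1, EDEM1 and SSR1 were called throughout. Reversed were CALR (-0.349 without _x_at and _s_at probe sets) and SEL1L (-0.318 with the mean of all probe sets), both from other probe sets. Against empty vector, the 7 higher members became 4 with the mean of all probe sets, 4 without _x_at and _s_at probe sets, 4 at 0.01, 11 with the trended prior, 11 with array weights and 4 to 7 with 1 array left out; the 1 lower member, ATF6, became 0 in these except the prior and the weights, and 0 with median centring, 6 arrays or the block. HSPA5 and HERPUD1 were called throughout. The median was 0.085 with quantile normalization, 0.073 with the mean of all probe sets, 0.076 without _x_at and _s_at probe sets and 0.077 to 0.124 with 1 array left out, and the wider list gave 11 higher with the filter and 2 to 5 with 1 array left out. For the difference of the effects, 8 members were higher without _x_at and _s_at probe sets and 11 to 14 with 1 array left out, 1 was lower with quantile normalization or weights and 0 to 1 with 1 array left out, and the median was 0.167 with quantile normalization, 0.234 with the mean of all probe sets, 0.235 without _x_at and _s_at probe sets and 0.172 to 0.251 with 1 array left out; 4 to 9 of the wider list, against 8, were lower with 1 array left out. Apart from these reversals, which come from the probe set chosen, the cause of these shifts was not tested.

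Same-numbered replicates of different groups deviated together in part (r -0.115 to 0.395 over 18 pairs, 10 of them over 0.1). The labels give a replicate number without saying that it pairs arrays, and the main fit left it out. Whether same-numbered arrays shared a batch was not tested. With the replicate number as a block, 14 members were higher with knockdown, though XBP1 was no longer called. In that fit 1 member was lower with overexpression and 0 were lower in knockdown than in empty vector arrays. Without detection calls or scanner files, signal over background was not examined.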
